A study of Homo sapiens with 112 samples.

Results

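LAPC4 is a human prostate cancer cell line that grows in response to androgen. Libraries of LAPC4 cells kept in DMSO, the vehicle, for 22 h were compared with libraries of cells kept in DMSO for 8 h, so that the comparison follows hormone-starved cells over time when no androgen was given. The libraries were chosen by their labels, and the comparison uses 17 libraries, 10 at 8 h and 7 at 22 h, of the 57 LAPC4 and 55 VCaP libraries of the series. Of 58684 listed genes, 18204 had at least 10 reads in at least 4 of the 57 LAPC4 libraries and were tested.

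The study treated LAPC4 cells and a second androgen-responsive prostate cancer line, VCaP, after both had spent 2 days in medium with charcoal-stripped serum, which is depleted of steroid hormones. Cells then received DMSO, the synthetic androgen R1881 at 1 nM, or R1881 at 1 nM with the androgen receptor antagonist darolutamide at 0.5 µM or 2 µM, and RNA was taken after 8 h or 22 h. Messenger RNA was sequenced as single-end reads and counted per gene. The LAPC4 arms other than DMSO hold 40 libraries, namely 10 and 10 with R1881, 5 and 5 with the lower and 5 and 5 with the higher dose of darolutamide, and the VCaP cells in DMSO hold 10 libraries at 8 h and 8 at 22 h. All DMSO cells were starved of hormone before and during the treatment, so no group of unstarved cells enters, and no library was taken at the start of the treatment. A single line represents each background. The methods name 5 biological replicates per condition while the labels give up to 10 libraries per group, and how the further libraries were raised is not given in the sources used here, so the p-values measure the spread between these libraries.

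Prostate cancer cells that depend on androgen divide less when it is withdrawn, and the RNAs of the division cycle follow its phases. Genes for DNA replication are switched on by E2F factors as cells enter S phase. Genes for mitosis are switched on later. The DREAM complex, which represses them, and activating complexes of MuvB bind a short element near the start of transcription. This element is called the CHR (cell cycle genes homology region). Cultured cells also change with the time since their medium was last touched, among others in the RNAs of chaperones, of sterol synthesis, of xenobiotic metabolism and of the circadian clock.

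The 17 libraries held between 18720445 and 24896060 reads in genes, and TMM scaling factors lay between 0.971 and 1.02. The slope of log2 CPM (counts of a gene per total counts, scaled to a common total) on the GC content of a gene, which varied between libraries, averaged 0.00245 ± 0.0141 (SD, n = 10) at 8 h and -0.00288 ± 0.0115 (SD, n = 7) at 22 h, and this difference did not pass a two-sided exact permutation test (p = 0.414). No pair of libraries agreed within counting noise. The label was checked against markers. All 14 markers of prostate luminal cells passed the filter, with KRT8, a keratin of luminal epithelium, at 431 to 710.2 CPM and HOXB13, a prostate transcription factor, at 239 to 327 CPM. Of the markers of other cells, 7 of 9 of basal epithelium, 3 of 11 of neuroendocrine cells, 3 of 9 of fibroblasts, 2 of 7 of endothelium and 0 of 9 of leukocytes passed. The basal marker TP63 had at most 9 reads in a library, the neuroendocrine markers CHGA and NEUROD1 at most 1, and SST, CLDN5, CD3D and MS4A1 had none in any of the 17.

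At an adjusted p under 0.05, 4020 genes (22.1% of those tested) differed between 22 h and 8 h, 1951 higher (10.7%) and 2069 lower (11.4%). Most differences were small. The median absolute log2 fold change of the called genes was 0.22, a 1.17-fold change, and 46 genes (0.253%) were called with a change of more than 1 on the log2 scale, 30 higher and 16 lower. Of these 46 genes, 44 lay at or below the median level of 16.4 CPM, and only CYP1A1 and CYP1B1 lay above it. The lowest library at 22 h lay above the highest at 8 h for 439 genes (2.41%), and the highest at 22 h lay below the lowest at 8 h for 513 (2.82%). These shares of all genes, called or without overlap, are the background for the counts of list members in DMSO below. Called genes spanned more of the genome than the genes tested as a whole. The median span was 48.8 kb for the genes that rose and 36.0 kb for those that fell, against 26.2 kb for all 15154 tested genes with a position. Called genes were also more often protein coding, 89.8% of the rises and 92.9% of the falls against 81.5% of all with a known GC content. Their longest transcripts had medians of 4.12 and 3.82 kb, against 3.42 kb. Whether the longer spans belong to the time change or to the kind of gene that is called was not tested.

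**Figure D1:**
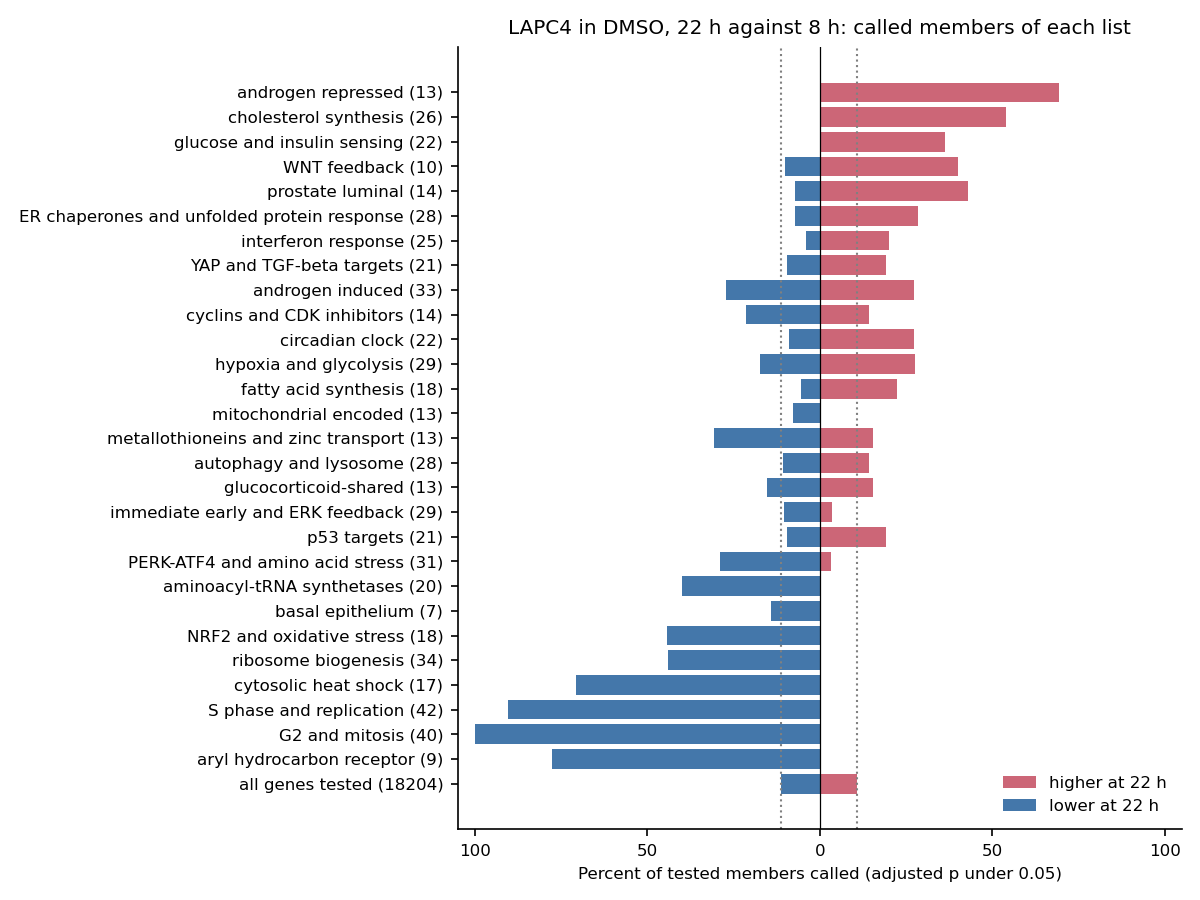
Percent of the tested members of each gene list that were called higher (right) or lower (left) at 22 h than at 8 h in LAPC4 cells in DMSO, with the number tested in parentheses; dotted lines mark the 10.7% and 11.4% of all genes. Bars of the G2 and mitosis list reach 100% and of the S phase list 90.5% on the lower side, and the longest bar on the higher side is the 69.2% of the androgen-repressed list.

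The RNAs of cell division fell together. All 40 genes of the G2 and mitosis list were lower at 22 h, with log2 fold changes between -0.58 and -0.14 and a median of -0.40, against -0.02 for all genes tested. For 34 of the 40 the groups did not overlap. Of the 42 genes of S phase and DNA replication, 38 fell and none rose, with a median of -0.28, and for 24 the groups did not overlap. The summed level of the 40 mitotic genes was 4355 to 4851 CPM with a median of 4503 in the 10 libraries at 8 h, and 3331 to 3743 CPM with a median of 3403 in the 7 at 22 h. That of the 42 replication genes was 2719 to 2793 CPM with a median of 2746 at 8 h, and 2232 to 2309 CPM with a median of 2271 at 22 h. Neither sum overlapped between the times. In bulk RNA, fewer cells in a phase and less RNA per cell cannot be told apart.

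The promoters of these genes are shown because they carry the elements that group them. They are the 300 bases from 250 before to 50 after the first listed RefSeq start of each gene on GRCh38.p14, 5′ to 3′ on the gene's strand, with the element in capitals where either strand matches. CCNB2 (cyclin B2, chr15:59104896-59105195, plus strand), PLK1 (a mitotic kinase, chr16:23678639-23678938, plus) and KIF11 (the spindle kinesin Eg5, chr10:92592880-92593179, plus) hold the CHR letters TTTGAA. MCM6 (a subunit of the replicative helicase, chr2:135876394-135876693, minus) and PCNA (the sliding clamp of DNA polymerases, chr20:5126573-5126872, minus) hold an E2F element, TTTGGCGC or TTTCCCGC.
CCNB2: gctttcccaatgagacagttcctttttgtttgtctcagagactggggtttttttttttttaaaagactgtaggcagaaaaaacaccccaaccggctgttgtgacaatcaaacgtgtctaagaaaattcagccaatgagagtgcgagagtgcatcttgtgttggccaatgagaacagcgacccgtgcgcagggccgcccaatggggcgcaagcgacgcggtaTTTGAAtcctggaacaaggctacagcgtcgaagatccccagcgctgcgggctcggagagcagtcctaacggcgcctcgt
PLK1: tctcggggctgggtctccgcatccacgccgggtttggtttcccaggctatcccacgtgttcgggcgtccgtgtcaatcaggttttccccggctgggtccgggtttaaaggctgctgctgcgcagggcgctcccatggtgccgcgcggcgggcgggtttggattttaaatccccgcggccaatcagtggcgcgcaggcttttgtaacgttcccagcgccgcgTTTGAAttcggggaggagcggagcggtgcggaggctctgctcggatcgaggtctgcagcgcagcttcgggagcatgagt
KIF11: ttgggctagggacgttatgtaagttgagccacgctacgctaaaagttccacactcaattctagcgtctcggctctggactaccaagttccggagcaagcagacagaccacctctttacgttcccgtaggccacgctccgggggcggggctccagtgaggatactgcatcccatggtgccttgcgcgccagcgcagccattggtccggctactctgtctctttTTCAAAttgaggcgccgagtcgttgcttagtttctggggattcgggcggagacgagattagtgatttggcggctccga
MCM6: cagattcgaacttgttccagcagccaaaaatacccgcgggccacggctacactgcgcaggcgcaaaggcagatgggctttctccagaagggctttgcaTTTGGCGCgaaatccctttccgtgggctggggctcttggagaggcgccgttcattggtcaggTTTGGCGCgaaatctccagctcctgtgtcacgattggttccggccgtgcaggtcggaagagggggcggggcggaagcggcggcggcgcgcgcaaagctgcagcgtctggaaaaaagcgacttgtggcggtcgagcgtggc
PCNA: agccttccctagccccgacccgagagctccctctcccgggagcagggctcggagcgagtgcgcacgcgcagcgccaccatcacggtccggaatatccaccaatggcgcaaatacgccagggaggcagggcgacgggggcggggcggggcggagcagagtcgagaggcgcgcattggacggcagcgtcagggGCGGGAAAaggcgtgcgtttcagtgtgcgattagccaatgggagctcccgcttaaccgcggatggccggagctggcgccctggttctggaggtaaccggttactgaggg

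In CCNB2 and PLK1 the CHR letters began 29 bases before the listed start, and in KIF11 28 bases before it. TTTGAA on either strand was found in 21 of the 34 mitotic genes with a promoter in the table (61.8%), in 1 of 35 replication genes, and in 15.4% of all 27305 promoters. TTTCCCGC or TTTGGCGC was found in 18 of the 35 replication genes (51.4%), in 2 of 34 mitotic genes, and in 2.31% of all promoters. The letters CCAAT, which often accompany the CHR, were in 26 of the 34 mitotic promoters (76.5%), 18 of the 35 replication promoters (51.4%) and 35.7% of all. These are matches of letters in the window, not sites of binding.

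KIF2C, AURKA and UBE2C had the smallest adjusted p of the mitotic list. KIF2C, a kinesin that takes microtubules apart at the kinetochore, was at 96.5 to 113 CPM with a median of 108 at 8 h and at 77.2 to 83.5 CPM with a median of 81.4 at 22 h. It fell by 0.40 ± 0.03 (SE) on the log2 scale (adjusted p = 3.73e-18), and the groups did not overlap. AURKA, the kinase Aurora A of the spindle poles, was at 40.6 to 46.7 CPM with a median of 42.8 at 8 h and at 30.1 to 34.5 CPM with a median of 31.8 at 22 h. UBE2C, the ubiquitin-conjugating enzyme of the anaphase-promoting complex, was at 46.1 to 56.5 CPM with a median of 49.2 and then at 34.1 to 39.3 CPM with a median of 37.7. Both genes separated the groups and fell, by 0.45 ± 0.03 and 0.41 ± 0.04 on the log2 scale (adjusted p = 4e-16 and 5.34e-14). MKI67, the proliferation marker Ki-67, named after its values were seen, had the largest fall of the list, -0.58 ± 0.06, from a median of 315 to 208 CPM. PTTG1, securin, chosen likewise, had the smallest, -0.14.

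Of the replication genes, TYMS, RRM2 and E2F8 had the smallest adjusted p. TYMS, thymidylate synthase, was at 46.4 to 50.2 CPM with a median of 48.0 at 8 h and at 33.7 to 36.4 CPM with a median of 34.1 at 22 h (log2 fold change -0.49 ± 0.04, adjusted p = 6.03e-17). RRM2, the small subunit of ribonucleotide reductase, was at 109 to 125 CPM with a median of 122 at 8 h and at 82.5 to 91.5 CPM with a median of 86.8 at 22 h (-0.46 ± 0.03, adjusted p = 2.65e-16). E2F8, an E2F family member that represses the others, was at 29.8 to 37.6 CPM with a median of 32.9 and then at 19.5 to 22.4 CPM with a median of 20.9 (-0.66 ± 0.05, adjusted p = 3.19e-16). In each of these genes every library at 22 h lay below every library at 8 h. The subunits of the helicase and clamp whose promoters are printed above had smaller changes, -0.12 for MCM6 and -0.16 for PCNA. SLBP, RFC4, MCM5 and CDT1 were the replication genes that did not pass, with log2 fold changes of -0.08, -0.03, -0.24 and -0.53.

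The fall of the mitotic genes had the same direction in the LAPC4 arms with R1881, which share no library with the DMSO arm. With R1881 alone, all 40 fell with a median of -0.30, beside 20.5% of all genes called there (10.0% higher and 10.5% lower). With R1881 and 0.5 µM darolutamide, 39 of 40 fell with a median of -0.36, beside 14.1% (6.40% higher and 7.71% lower), and with 2 µM all 40 fell with a median of -0.37, beside 14.2% (6.52% higher and 7.70% lower). Of the replication genes, 15 were lower and 5 higher with R1881 alone, with a median of -0.07. With the lower dose of darolutamide 25 were lower and none higher (median -0.20), and with the higher dose 26 were lower and none higher (median -0.25). The difference from DMSO was tested as an interaction. Between R1881 and DMSO the time change differed in 584 genes (3.21%), 327 with the more positive change with R1881 (1.80%) and 257 with the more negative (1.41%). Of the replication genes, 22 of 42 were among the 327 and none among the 257, and the estimate was positive for all 42 with a median of 0.21. Of the mitotic genes, 1 of 40 differed, and the estimate was positive for 37 of the 40 with a median of 0.09. With replicates 1 to 5 of each group only, the 584 genes became 275 and the 22 replication genes 15, and the estimate was positive for 39 of the 40 mitotic genes with a median of 0.15.

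In VCaP cells the mitotic genes moved the other way. All 40 rose from 8 h to 22 h in DMSO, by 0.77 to 1.70 on the log2 scale with a median of 1.31, beside 29.8% of 19266 genes called (15.9% higher and 13.9% lower). Their summed level in VCaP libraries, which were scaled separately, was 1371 to 1576 CPM with a median of 1496 at 8 h and 3449 to 3924 CPM with a median of 3599 at 22 h. The VCaP sums at 22 h reached the range of LAPC4 at 22 h, and at 8 h they lay below all LAPC4 sums. KIF2C rose in VCaP cells from a median of 17.8 to 47.9 CPM and AURKA from 29.0 to 70.2 CPM. The time change differed between the lines in 3697 of 16578 genes tested in both (22.3%, 11.5% more positive in LAPC4 and 10.8% more negative), and all 40 mitotic genes were among those more negative in LAPC4, with a median difference of -1.66. The replication genes had no common direction in VCaP cells, with 6 higher, 9 lower, a median of -0.00 and a summed level of 1631 to 1723 CPM at 8 h and 1629.8 to 1715 CPM at 22 h. For these genes 25 of 42 line differences were called with the more negative change in LAPC4 and 2 with the more positive. Each line was a set of libraries of its own, so the line cannot be told apart from anything else that differed between the sets.

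**Figure D2:**
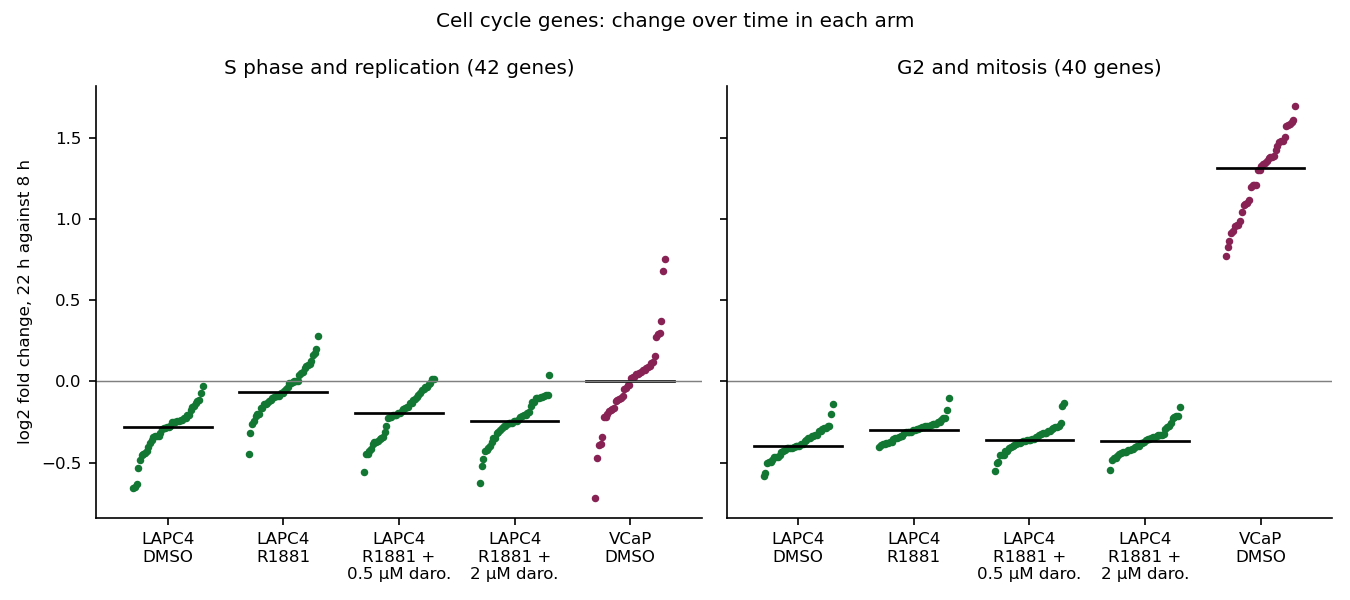
Log2 fold change at 22 h against 8 h of each gene (points) of the S phase list (left, 42 genes) and the G2 and mitosis list (right, 40 genes) in the 4 LAPC4 arms and in VCaP cells in DMSO, with horizontal bars for the median. The mitotic medians lie between -0.40 and -0.30 in LAPC4 and at 1.31 in VCaP, and the replication median is closest to 0 for LAPC4 with R1881 (-0.07) and VCaP (-0.00).

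Within replicates 1 to 5 (5 against 5 libraries), all 40 mitotic genes fell with a median of -0.44 and 32 of 42 replication genes with a median of -0.28. Within replicates 6 and above (5 against 2 libraries), the medians were -0.34 and -0.31, and 18 and 10 genes passed. The list of cyclins and CDK inhibitors, which holds brakes as well as drivers of the cycle, had 2 rises and 3 falls among 14. These are 14.3% and 21.4%, beside 10.7% and 11.4% of all genes. CDKN2C, the inhibitor p18, fell by 0.44 ± 0.05 on the log2 scale. CDK6, a kinase of the G1 phase, and CCND1, cyclin D1, rose by 0.39 ± 0.06 and 0.11 ± 0.03, with ranges that overlapped.

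Targets of the aryl hydrocarbon receptor held the largest changes. This receptor is switched on by planar aromatic ligands and induces enzymes that oxidize them. Of 9 tested genes of its list, 7 fell and none rose, with a median of -0.63, and for 5 the groups did not overlap. CYP1A1, the cytochrome P450 that is the classic target (chr15:74719542-74725536, minus strand), was at 61.0 to 91.5 CPM with a median of 78.2 at 8 h and at 10.6 to 17.4 CPM with a median of 12.3 at 22 h. It fell by 2.59 ± 0.09 on the log2 scale (adjusted p = 2.56e-31). CYP1B1, a second P450 of the family (chr2:38066973-38109902, minus), was at 80.9 to 91.4 CPM with a median of 85.1 and then at 24.4 to 30.5 CPM with a median of 25.9, a fall of 1.67 ± 0.06 (adjusted p = 2.28e-31). No library at 22 h came near the lowest at 8 h in either gene.

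CYP1A2, the neighbour of CYP1A1 on chromosome 15 (chr15:74748845-74756607, plus strand), had few reads, at 5.97 to 7.77 CPM with a median of 6.71 at 8 h and at 0.269 to 0.901 CPM with a median of 0.411 at 22 h (log2 fold change -3.86 ± 0.16, adjusted p = 3.91e-27). The other members of the list are named after their values were seen. ALDH3A1, an aldehyde dehydrogenase, fell by 1.81 ± 0.25, and AHRR, the repressor that the receptor itself induces, by 0.49 ± 0.11. SLC7A5, an amino acid transporter, and NQO1, a quinone reductase, fell by 0.63 and 0.30. SLC7A5 is also a member of the PERK and ATF4 list below and NQO1 of the NRF2 list, so these lists are not independent. The receptor gene AHR and its target TIPARP did not pass, at -0.03 and 0.06. The summed level of the 9 genes was 759 to 821 CPM at 8 h and 548 to 588 CPM at 22 h. The letters TNGCGTG, the core of the receptor's element, were in 2 of 7 promoters of the list, those of AHRR and NQO1, against 5.51% of all.

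Both P450 genes also fell in the arms with R1881. The change of CYP1A1 was -2.49 with R1881, -2.49 with the lower and -2.84 with the higher dose of darolutamide, and that of CYP1B1 was -1.51, -1.74 and -2.0. Neither gene differed from DMSO in the interaction test with R1881 (differences 0.10 ± 0.11 and 0.16 ± 0.07, adjusted p = 0.73 and 0.28). In VCaP cells CYP1A1 was at 1.14 to 2.49 CPM at 8 h and 0.962 to 2.21 CPM at 22 h and changed by -0.27, and CYP1B1 by -0.19. The line differences of -2.29 ± 0.18 and -1.45 ± 0.10 passed the test.

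Chaperones of the cytosol fell. These proteins fold others and are induced by heat shock factor 1 when unfolded proteins accumulate. Of 17 tested genes 12 fell and none rose, with a median of -0.23, and for 4 the groups did not overlap. HSPA8, the constitutive Hsp70 (chr11:123057489-123063230, minus strand), was at 2378 to 2999.7 CPM with a median of 2696 at 8 h and at 1612 to 1801 CPM with a median of 1639 at 22 h. It fell by 0.68 ± 0.04 (adjusted p = 2.34e-22) and separated the groups by a wide gap. DNAJB1 and HSPH1, an Hsp40 and an Hsp110 that work with Hsp70, fell by 0.38 ± 0.03 and 0.44 ± 0.04, also without overlap. The promoter of HSPA8 (chr11:123062087-123062386, minus strand, GRCh38.p14) is shown with the letters GAANNTTC, the core of a heat shock element, in capitals.
HSPA8: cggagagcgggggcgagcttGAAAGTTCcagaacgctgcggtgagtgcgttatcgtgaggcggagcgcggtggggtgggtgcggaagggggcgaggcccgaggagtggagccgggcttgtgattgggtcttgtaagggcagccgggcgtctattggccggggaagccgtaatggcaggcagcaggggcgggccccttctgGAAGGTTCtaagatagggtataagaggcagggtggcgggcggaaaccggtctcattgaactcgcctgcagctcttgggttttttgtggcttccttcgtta

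These letters began 230 and 50 bases before the listed start. They were in 6 of the 15 promoters of the list (40.0%) against 6.87% of all. The inducible Hsp70 genes HSPA1A and HSPA1B were among the largest falls by their estimate, but their libraries varied widely. HSPA1A was at 141 to 399 CPM with a median of 288 at 8 h and at 101 to 188 CPM with a median of 157 at 22 h, a fall of 0.81 ± 0.24 (adjusted p = 0.00976), and the ranges overlapped. With the GC slope as a covariate the value was -0.57. Within replicates 1 to 5 it was -0.57 and within 6 and above -1.10, and neither passed (adjusted p = 0.111 and 0.130). HSPA1A and HSPA1B are near-identical neighbours. How reads matching both were counted is not given in the sources used here, so both may hold the same reads. The same holds for HSPA8 and its pseudogenes HSPA8P5, HSPA8P7 and HSPA8P11, which fell by 0.70, 0.70 and 0.69 on the log2 scale, much as HSPA8 did.

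In the other arms HSPA8 changed by -0.62, -0.72 and -0.73, and HSPA1A by -0.26, -0.28 and -0.45. The heat shock list had 9 falls among 16 in VCaP cells, beside 13.9% of all genes lower there, and HSPA8 fell in these cells by 0.51 ± 0.03. Of 28 genes for chaperones of the endoplasmic reticulum and its stress response, 8 rose and 2 fell, with a median of 0.04. XBP1, a transcription factor of the unfolded protein response, was at 281 to 315 CPM with a median of 294 at 8 h and at 323 to 357 CPM with a median of 326 at 22 h, a rise of 0.17 ± 0.02. HSPA5 (BiP), the main chaperone there, was at 961 to 1080.1 CPM with a median of 1028 and then at 1093 to 1156 CPM with a median of 1122, a rise of 0.13 ± 0.02. ERN1, the stress sensor IRE1, fell by 0.17 ± 0.03 with overlapping ranges.

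Genes of sterol synthesis rose. The enzymes of this pathway are induced by SREBP2 when sterols in the membrane are low. Of 26 tested genes 14 rose and none fell, with a median of 0.17, and for 7 the groups did not overlap. The summed level was 5692 to 6212 CPM with a median of 5909 at 8 h and 6702 to 6892 CPM with a median of 6761 at 22 h. MSMO1, a sterol demethylase, had 229 to 263 CPM with a median of 248 at 8 h and 325 to 383 CPM with a median of 340.2 at 22 h (log2 fold change 0.50 ± 0.04, adjusted p = 1.92e-16). FDFT1 (squalene synthase) and INSIG1, which holds back the SREBPs, rose by 0.29 ± 0.02 and 0.30 ± 0.03, also without overlap.

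Other members are named after their values were seen. HMGCS1, which makes HMG-CoA, rose by 0.41 and SQLE (squalene epoxidase) by 0.32. MVD, LSS and CYP51A1 did not pass, at -0.36, -0.21 and -0.28. The list had 18 rises with R1881 (of 26), 13 and 12 with the lower and higher dose of darolutamide, and 17 of 25 in VCaP cells, without a fall in any of these. The shares of all genes called higher were 10.0%, 6.40%, 6.52% and 15.9% in that order. INSIG1 rose more in VCaP cells, by 0.77, and the line difference of -0.43 ± 0.06 passed.

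Of 18 genes of fatty acid synthesis 4 rose and 1 fell, with a median of 0.01. These are 22.2% and 5.56%, beside 10.7% and 11.4% of all genes. FADS1, a desaturase of polyunsaturated fatty acids, was at 52.8 to 64.4 CPM with a median of 60.7 at 8 h and at 83.9 to 95.1 CPM with a median of 85.5 at 22 h (0.54 ± 0.03, adjusted p = 1.45e-19). ACSL4, which activates arachidonic acid, rose by 0.69 ± 0.05 from a median of 8.60 to 13.9 CPM. GPAM, the first enzyme of glycerolipid synthesis, fell by 0.23 ± 0.05 with overlapping ranges. FASN, the fatty acid synthase, was at -0.46 and did not pass.

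Most genes of a list known to be held down by androgen rose in these cells without androgen. Of 13 tested genes of that list 9 rose and none fell, with a median of 0.40. PEG3, an imprinted zinc finger gene, was at 453 to 564 CPM with a median of 509 at 8 h and at 679.6 to 881 CPM with a median of 725 at 22 h (0.55 ± 0.05, adjusted p = 1.85e-14). LRRC31, a leucine-rich repeat gene, rose by 0.33 ± 0.04 and BCHE, butyrylcholinesterase, by 0.63 ± 0.09. None of the 3 overlapped between the groups. UGT2B15 and UGT2B17, enzymes that conjugate androgens to glucuronic acid, rose by 0.45 and 0.40, and their near-identical sequences make the split of reads between them uncertain. With R1881, 6 of the 13 rose and 1 fell, with a median of 0.00, and with each dose of darolutamide added 5 rose and none fell. Of all genes, 10.0% rose with R1881, and 6.40% and 6.52% with the lower and higher dose of darolutamide. The time change was more negative with R1881 than with DMSO in 4 of the 13 and more positive in none, beside 1.41% and 1.80% of all genes. With R1881, LRRC31 fell by 0.19, UGT2B15 and UGT2B17 were at -0.05 and -0.09, and their differences from DMSO of -0.52, -0.51 and -0.48 passed. PEG3 and BCHE rose there as well, by 0.64 and 0.31. In VCaP cells 3 of 16 genes of the list rose (18.75%) and 5 fell (31.25%), beside 15.9% of all genes higher and 13.9% lower there.

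Genes known to be induced by androgen split evenly, with 9 higher and 9 lower among 33 and a median of 0.03. NCAPD3, a condensin subunit, was at 61.4 to 69.2 CPM at 8 h and 50.7 to 56.2 CPM at 22 h, a fall of 0.33 ± 0.03 (adjusted p = 3.55e-13). FKBP5, a co-chaperone of steroid receptors, was at 135 to 155 CPM at 8 h and 117 to 132 CPM at 22 h, a fall of 0.21 ± 0.04. CENPN, a centromere protein, fell by 0.38 ± 0.04, and ABHD2, a lipid hydrolase, rose by 0.28 ± 0.03. The ranges of these 4 genes did not overlap. PMEPA1, a brake of TGF-beta signaling, fell by 0.14 ± 0.03 with overlapping ranges. KLK2, a secreted protease of the prostate that was named after its values were seen, rose by 0.38, and KLK3, which encodes prostate-specific antigen, was at 0.21 and did not pass. With R1881 the list had 19 rises and 2 falls with a median of 0.19, beside 10.0% of all genes higher and 10.5% lower. Of its 33 interactions with DMSO 15 passed, all more positive with R1881, beside 1.80% of all genes.

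The circadian clock list was described gene by gene. In the clock, CLOCK and ARNTL (BMAL1) switch on the PER and CRY genes, whose proteins switch them off again, while ROR and REV-ERB receptors tune ARNTL. Of 22 tested genes 6 were higher, 2 lower and 14 did not pass, with a median of 0.02. These are 27.3% higher and 9.09% lower, beside 10.7% and 11.4% of all genes. CRY1 was at 84.9 to 93.2 CPM with a median of 89.3 at 8 h and at 111 to 128 CPM with a median of 118 at 22 h (0.40 ± 0.03, adjusted p = 1.94e-18). ARNTL was at 14.2 to 17.2 CPM with a median of 15.2 and then at 18.9 to 24.3 CPM with a median of 22.7 (0.51 ± 0.05, adjusted p = 5.19e-11). RORA was at 7.38 to 10.3 CPM with a median of 8.68 and then at 10.9 to 13.4 CPM with a median of 11.5 (0.44 ± 0.07). CRY1 is a repressor of the loop and ARNTL and RORA are activators, and all 3 rose without overlap.

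PER2, a repressor of the loop, was at 35.3 to 42.3 CPM with a median of 38.2 at 8 h and at 30.8 to 32.8 CPM with a median of 31.8 at 22 h, a fall of 0.26 ± 0.04 (adjusted p = 4.19e-06) without overlap. CIART, a repressor of CLOCK and ARNTL with few reads, rose by 0.61 ± 0.13 with ranges that touched, and DBP, an output gene of the clock, by 0.62 ± 0.22. CLOCK rose by 0.14 ± 0.05 and CRY2 fell by 0.15 ± 0.05. The calls of DBP, CLOCK and CRY2, with adjusted p of 0.0393, 0.0288 and 0.0244, were lost when single libraries were left out. Among the genes that did not pass were PER1 (0.03), PER3 (-0.05), ARNTL2 (0.07), NPAS2 (0.32), NR1D1 (0.12), NR1D2 (0.01), TEF (-0.01), HLF (-0.19), NFIL3 (0.13), BHLHE40 (-0.04), CSNK1D (-0.02) and CSNK1E (-0.07), all as log2 fold changes. CRY1 and ARNTL rose in each LAPC4 arm, CRY1 by 0.26, 0.36 and 0.38 and ARNTL by 0.45, 0.45 and 0.58. In VCaP cells CRY1 fell by 0.48 and ARNTL was at 0.04, and both line differences passed. The E-box letters CACGTG were in 4 of 19 clock promoters against 7.43% of all. With 2 times of sampling, a daily rhythm cannot be told apart from any other change between 8 h and 22 h.

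**Figure D3:**
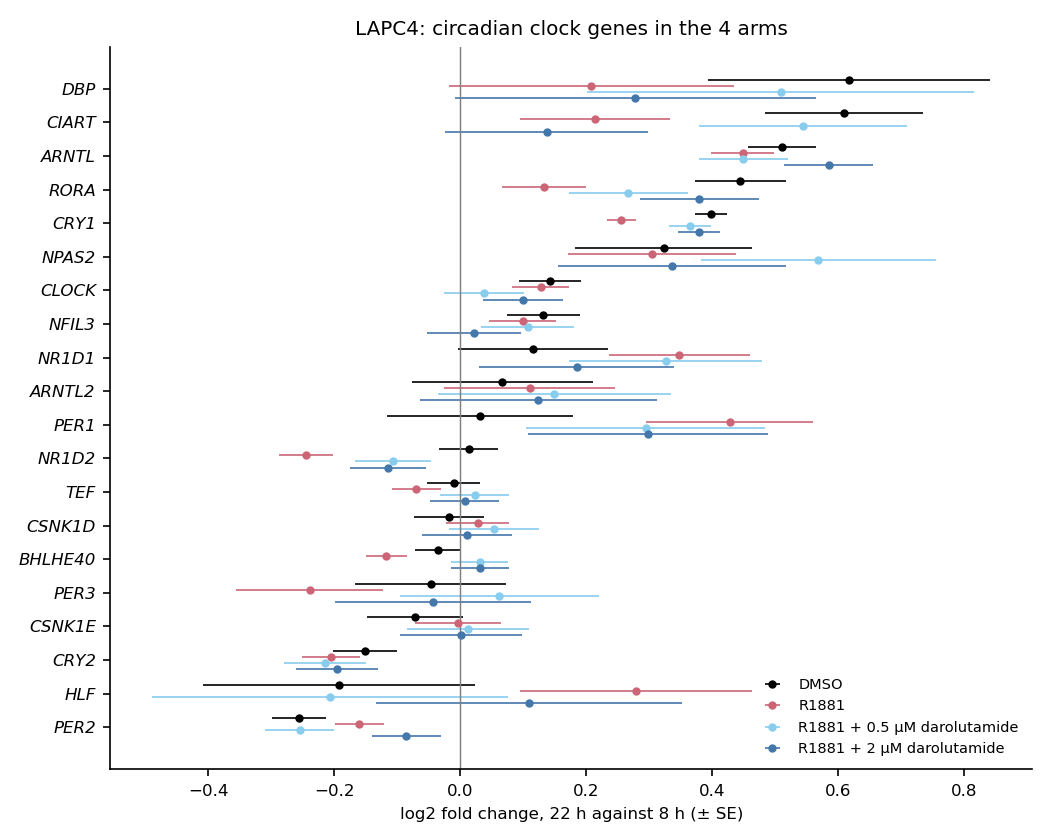
Log2 fold change at 22 h against 8 h (± SE) of 20 of the 22 tested clock genes in the 4 LAPC4 arms. CRY1 (0.40, 0.26, 0.36 and 0.38) and ARNTL (0.51, 0.45, 0.45 and 0.58) lie right of 0 in every arm, and PER2 lies left of 0.

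Several stress and growth lists shifted by small amounts. Of all genes tested, 10.7% were called higher and 11.4% lower. Of 31 genes of the PERK and ATF4 pathway, which answers a shortage of amino acids, 9 fell and 1 rose, with a median of -0.08. ASNS (asparagine synthetase) fell by 0.24 ± 0.04 and MTHFD2, a mitochondrial folate enzyme, by 0.23 ± 0.03. SLC7A11, the cystine transporter, fell by 0.40 ± 0.06 with overlapping ranges. Of 20 aminoacyl-tRNA synthetases 8 fell and none rose, with CARS at -0.27, GARS at -0.24 and HARS at -0.23. Of 18 genes of the oxidative stress factor NRF2, 8 fell and none rose, with NQO1 at -0.30 ± 0.03 (386 to 425 CPM at 8 h and 318 to 342 CPM at 22 h) and GCLM, a subunit of the enzyme that begins glutathione synthesis, at -0.36 ± 0.05. Of 34 genes of ribosome biogenesis 15 fell and none rose, with a median of -0.11. URB2, RRP1B and UBTF, which act in ribosomal RNA synthesis and processing, fell by 0.25, 0.19 and 0.16. Among replicates 6 and above none of the 34 passed.

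Genes that sense glucose and insulin rose in part, 8 of 22 and none lower, with a median of 0.12. The shares of all genes were 10.7% higher and 11.4% lower. TXNIP, a thioredoxin inhibitor induced by glucose, was at 531 to 618 CPM with a median of 564 at 8 h and at 633 to 698 CPM with a median of 658 at 22 h (0.23 ± 0.03). TRIB2, a pseudokinase, and FOXO3, a transcription factor held in the cytoplasm by insulin signaling, rose by 0.22 ± 0.03 and 0.18 ± 0.03. The hypoxia and glycolysis list had 8 rises and 5 falls among 29, with CA12, a carbonic anhydrase, at -0.73, HK2 (hexokinase) at -0.23 and MXI1 at 0.23. The prostate luminal markers had 6 rises and 1 fall among 14, and FOLH1, which encodes prostate-specific membrane antigen and was named after its values were seen, was at 439 to 499.6 CPM at 8 h and at 599.9 to 671 CPM at 22 h, a rise of 0.45 ± 0.03.

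The remaining lists moved little or in both directions. Beside their counts, 10.7% of all genes tested were called higher and 11.4% lower. Immediate early and ERK feedback genes had 1 rise and 3 falls among 29, with the ERK phosphatase DUSP5 at -0.68 and ETV5 at 0.58. The metallothionein and zinc transport list had 2 rises and 4 falls among 13, with the zinc exporter SLC30A4 at 0.37 and MT1X at -0.55. YAP and TGF-beta targets had 4 rises and 2 falls among 21, with TGFB2 at 0.54 and AJUBA at 0.19. WNT feedback genes had 4 rises and 1 fall among 10, with AXIN2 at 0.43. Targets of p53 had 4 rises and 2 falls among 21, with SESN1 at 0.22 and TP53INP1 at 0.24. Interferon response genes had 5 rises and 1 fall among 25, with IRF1 at 0.52 and IFI44L at 0.33. Glucocorticoid-shared genes had 2 rises and 2 falls among 13, with TSC22D3 at 0.14 and MT2A at -0.97. Autophagy and lysosome genes had 4 rises and 3 falls among 28 (14.3% and 10.7%, near the shares of all genes), with RRAGD at 0.27. Of 13 genes of the mitochondrial genome 1, MT-ND3, fell, by 0.14 (adjusted p = 0.0494), and its call was lost under several settings. Of the markers of other cells, 2 of 3 tested neuroendocrine genes, 1 of 3 fibroblast and 1 of 2 endothelial genes rose, and 1 of 7 basal genes fell.

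**Figure D4:**
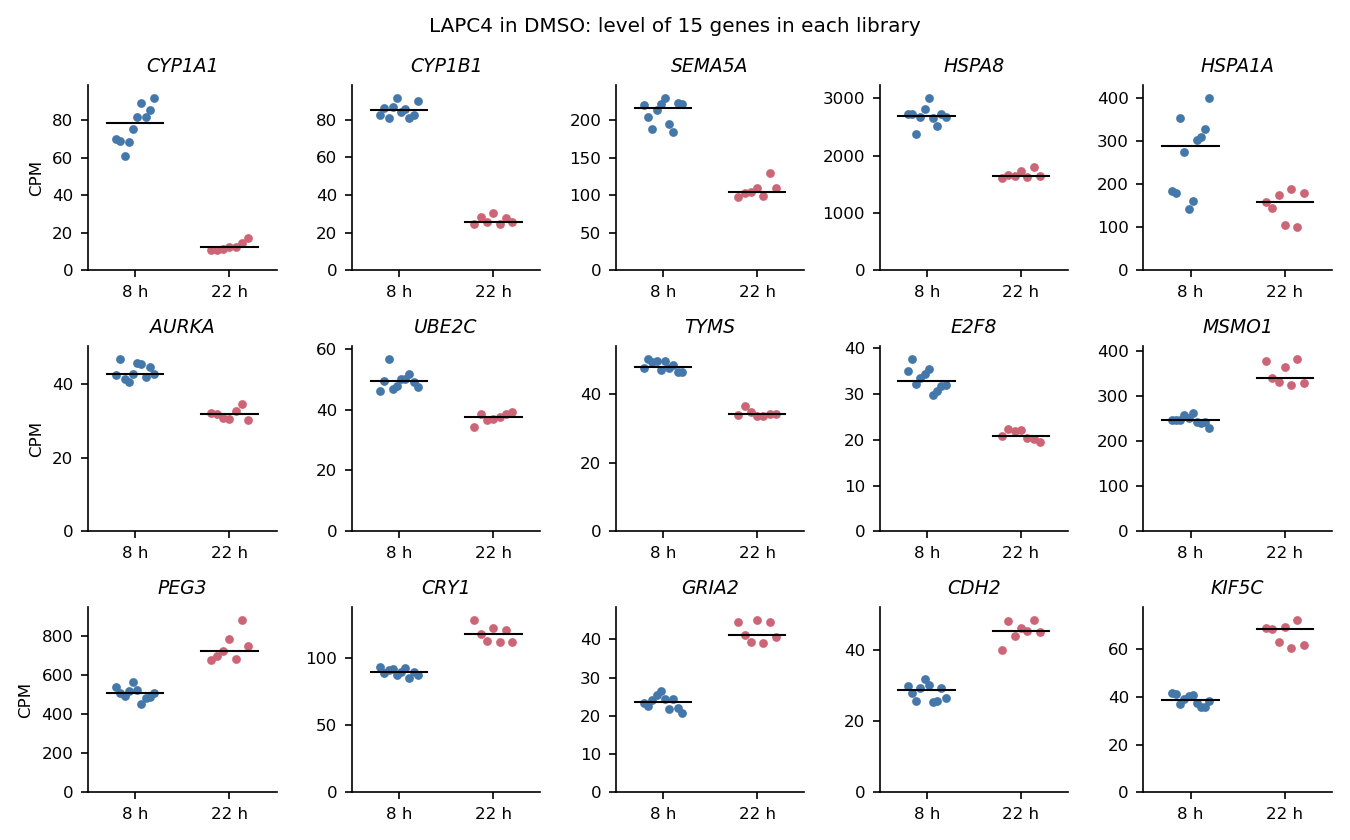
Level in CPM (linear axis from 0) of 15 genes in each LAPC4 library in DMSO at 8 h (10 points) and 22 h (7 points), with the median as a bar. Of the genes drawn, HSPA1A is the one whose points overlap between the times, and CYP1A1 shows the widest gap.

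Beyond the lists, the 12 largest rises and 12 largest falls among genes above the median level were taken. In 22 of the 24 the groups did not overlap, the exceptions being HSPA1A and HSPA1B. GRIA2, a subunit of AMPA glutamate receptors (chr4:157204182-157387146, plus strand), was at 20.7 to 26.4 CPM with a median of 23.7 at 8 h and at 39.1 to 45.0 CPM with a median of 41.0 at 22 h (0.84 ± 0.05, adjusted p = 9.73e-22). CDH2, N-cadherin (chr18:27932879-28177946, minus), was at 25.4 to 31.8 CPM with a median of 28.6 and then at 40.0 to 48.3 CPM with a median of 45.3 (0.68 ± 0.05, adjusted p = 5.96e-17). KIF5C, a kinesin of neuronal transport, was at 35.6 to 41.6 CPM with a median of 38.7 and then at 60.5 to 72.0 CPM with a median of 68.2 (0.77 ± 0.04). All libraries at 22 h lay above those at 8 h in these genes.

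PCDH10, a protocadherin, rose by 0.77 ± 0.05 and CNTN1, contactin 1, by 0.66 ± 0.07. PCDH11X and PCDH11Y both rose by 0.84, and since they are near-identical copies their reads cannot be assigned with certainty. NREP, a regulator of neuronal regeneration, was at 177 to 206 CPM with a median of 193 at 8 h and at 275 to 322 CPM with a median of 307 at 22 h (0.66 ± 0.03, adjusted p = 2.26e-24), the smallest adjusted p of the 12 rises. MMP10, the matrix metalloproteinase stromelysin 2, rose by 0.82 ± 0.06, L3MBTL3, a reader of methylated histones, by 0.80 ± 0.05, NOV, a secreted matricellular protein, by 0.73 ± 0.09, and NKX1-2, a homeobox gene, by 0.70 ± 0.06. Some of these genes are best known from neurons, and of the 11 neuroendocrine markers ENO2 rose, by 0.62. SYP passed the filter but not the test, and 8 of the markers had at most 5 reads in any of the 17 libraries. The part of neuroendocrine cells in the rises was not tested.

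Among the falls, SEMA5A, an axon guidance semaphorin (chr5:9035033-9546075, minus strand), was at 184 to 229 CPM with a median of 216 at 8 h and at 97.3 to 129.6 CPM with a median of 104 at 22 h (-0.96 ± 0.05, adjusted p = 1.54e-21). ADGRF1, an adhesion G protein-coupled receptor, fell by 0.81 ± 0.06 from a median of 76.6 to 45.5 CPM. SHISA2, which retains WNT and FGF receptors in the endoplasmic reticulum, fell by 0.79 ± 0.05 from a median of 22.1 to 12.9 CPM, and CA12 by 0.73 ± 0.05 from 24.6 to 14.4 CPM. The groups of these genes lay apart.

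Of the 24 genes 23 had the same sign in each of the other 3 LAPC4 arms, and 21, 22 and 22 were called the same way with R1881, the lower and the higher dose of darolutamide. The exception was MMP10, at -0.06 with R1881 and at 0.42 and 0.58 with darolutamide added, and its difference between R1881 and DMSO of -0.87 ± 0.09 passed. GRIA2 rose less with R1881, by 0.28 (difference -0.55 ± 0.06), and by 0.79 and 0.70 with darolutamide added. KIF5C, L3MBTL3 and SHISA2 had differences from DMSO of 0.10, -0.02 and -0.02 with R1881, which did not pass. Of 18 of these genes tested in both lines 14 differed in their time change, beside 22.3% of all genes tested in both. The genes were chosen for a large change in LAPC4 cells in DMSO. The same libraries enter the differences from R1881 and from VCaP, so the choice itself favors a difference. CDH2 fell in VCaP cells by 1.10 ± 0.15 from a median of 1.86 to 0.887 CPM, L3MBTL3 fell by 0.49, and SHISA2 rose by 0.67.

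**Figure D5:**
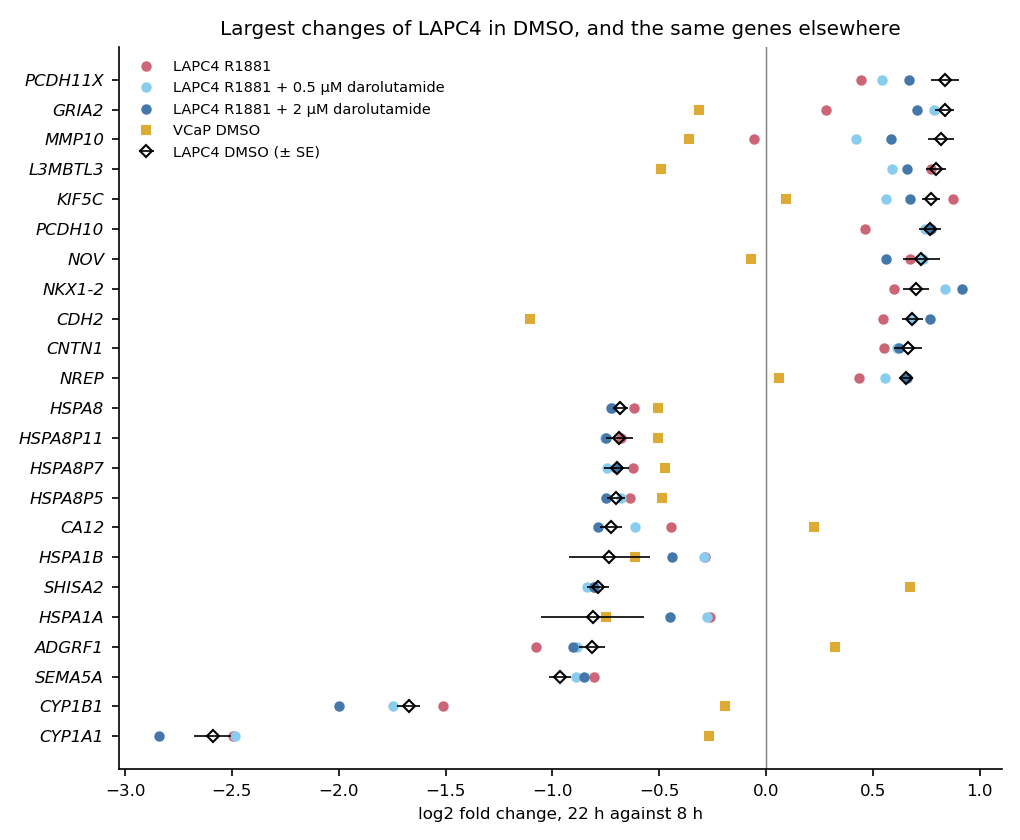
Log2 fold change at 22 h against 8 h of the genes with the largest rises and falls in LAPC4 cells in DMSO (diamonds, ± SE) and of the same genes in the other LAPC4 arms (circles) and in VCaP cells in DMSO (squares); PCDH11Y is not drawn. CYP1A1 and CYP1B1 lie far left in all LAPC4 arms, MMP10 with R1881 lies at -0.06, and the VCaP squares of CDH2, L3MBTL3 and SHISA2 are among those on the other side of 0.

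Over all genes, the DMSO time change was compared with that of the arms that share no library with it. Of the 4020 genes called in DMSO, 3611 (89.8%) had the same sign with R1881, 3903 (97.1%) with the lower and 3945 (98.1%) with the higher dose of darolutamide, where genes not called in DMSO had the same sign in 59.6%, 62.1% and 66.9%. Called in the same direction were 2114 genes with R1881 (52.6% of the DMSO calls and 56.6% of the R1881 calls), 2028 with the lower dose (50.4% and 79.0%) and 2105 with the higher dose (52.4% and 81.3%). Called in the opposite direction were 63, 1 and 0. In the interaction tests of edgeR, 0 genes differed between DMSO and either darolutamide arm, with 640 and 467 genes at an unadjusted p under 0.05 and 0 by DESeq2 for both. In VCaP cells, 3738 of the 4020 genes were tested. Of these 991 were called in the same direction (26.5% of the LAPC4 and 19.2% of the VCaP calls) and 758 in the opposite, and the same sign was found for 55.9% of called and 56.2% of uncalled genes.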

How the data were processed

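Messenger RNA was sequenced in 57 LAPC4 and 55 VCaP libraries, of which all LAPC4 libraries and the VCaP libraries in DMSO enter here. The values are raw counts of reads per gene that the authors deposited without normalization, made with STAR and featureCounts (Subread) on GRCh38 after bcl2fastq 2.17. The annotation used for counting, its strand setting and its handling of multiply aligned reads are not given in the sources used here. The gene copies HIST2H3A and HIST2H3C had equal values (0.217 to 0.916 CPM at 8 h in LAPC4 cells in DMSO). Reads matching several near-identical genes may therefore have been counted in each of them. Groups came from the sample labels.

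Genes reaching 10 reads in 4 or more LAPC4 libraries were fitted in edgeR 4.0.16 (R 4.3.3) with TMM scaling and the quasi-likelihood test, over the 57 libraries in 8 groups, with Benjamini-Hochberg adjustment and a threshold of 0.05. The study used DESeq2, which is an alternative here (1.42.0). Each standard error was computed as |log2 fold change| over the root of its F statistic. CPM used TMM factors, and log2 CPM a prior count of 2. VCaP was fitted separately, and the difference between lines in a joint fit. The fits were tested on simulated data.

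The comparison, the 32 lists (26 pathways and 6 cell types, written from general knowledge) and the tests were chosen with earlier results of these data known. Named by rule were the 12 largest rises and 12 largest falls above the median level, the 3 called members of each pathway list with the smallest adjusted p, and the clock genes, of which some, like some members of other lists, are not reported here. Other genes, among them those given with a promoter or as members that did not pass, were picked with their values in view. Gene positions are those of GENCODE 44 (GRCh38) and promoters from RefSeq on GRCh38.p14, with 34 of 40 mitotic, 35 of 42 replication, 15 of 17 heat shock, 7 of 9 aryl hydrocarbon receptor and 19 of 22 clock genes matched by symbol. Replicate numbers, which the sample labels give, were not taken to pair the libraries. Alternatives were other scalings, filters, sample sets, replicate ranges, a replicate block, a GC covariate and the omission of single libraries.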

Additional observations from a re-analysis of the deposited data

Results flagged for a closer look

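Single libraries stood apart in 6 of the 230 groups of named genes examined, fewer than the about 1 in 20 that chance gives. At 22 h, replicate 6 was the highest for SEMA5A (129.6 CPM), FADS1 (95.1 CPM) and XBP1 (356.7 CPM), and replicate 7 was the lowest for ABHD2 (281.8 CPM). At 8 h, replicate 3 was the highest for UBE2C (56.5 CPM) and replicate 9 for URB2 (36.9 CPM).

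The time change differed by an interaction test between LAPC4 and VCaP cells in 3697 genes and between R1881 and DMSO in LAPC4 cells in 584. Among the largest changes, the difference of LAPC4 minus VCaP on the log2 scale was negative for CYP1A1 (-2.29), CYP1B1 (-1.45), SHISA2 (-1.43), ADGRF1 (-1.11), CA12 (-0.92), HSPA8P5 (-0.19) and HSPA8 (-0.15). It was positive for CDH2 (1.81), L3MBTL3 (1.32), MMP10 (1.21), GRIA2 (1.18), NOV (0.82), KIF5C (0.71) and NREP (0.62). These genes were chosen by their change in LAPC4 cells in DMSO, which enters the difference. The choice itself therefore favors negative values for the falls and positive values for the rises.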

How the results depend on the processing

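The 4020 genes became 6692 with the GC slope as a covariate and 327 with replicates 6 and above only, and lay between 3642 and 4175 when each library was left out. The share called higher was 48.5%, 58.3% with library totals in place of TMM, 37.9% with replicates 1 to 5 only and 60.2% with 6 and above. The 46 genes past 1 became 110 without a filter and 18 with replicates 6 and above, and 42 to 56 on leaving out a library. Called members numbered 25 for ribosome biogenesis with the GC covariate. With replicates 6 and above they numbered 18 (mitosis), 10 (S phase), 2 (heat shock), 4 (aryl hydrocarbon receptor), 7 (cholesterol), 1 (androgen repressed), 0 (ribosome biogenesis) and 2 (clock, higher). On leaving out a library they stayed at 40, lay at 34 to 38 and 11 to 12, stayed at 7, and lay at 13 to 15, 8 to 9, 12 to 18 and 4 to 6 in that order. MT-ND3 turned to 0.093 with replicates 6 and above. The lower and higher darolutamide arms gave 2022 to 2888 and 2168 to 2739 genes without single libraries. With replicates 1 to 5 only, 2140 line differences and 275 differences between R1881 and DMSO were called. Of 114 named genes, DESeq2 kept 113 on the same side of the threshold, replicates 1 to 5 kept 98 and replicates 6 and above, with 2 libraries at 22 h, kept 58. The cause of these shifts was not tested.

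With the replicate number as a block over 7 pairs, 3009 genes were called (1500 higher and 1509 lower) and 9 of ribosome biogenesis. The block gave 5672 genes for R1881 and 1608 for the higher darolutamide arm. Deviations of same-numbered libraries correlated between -0.385 and 0.315, with 0 of the 7 at 22 h closest to its own number at 8 h. The correlation was over 0.1 in 3 of these 7 pairs and in 4 of 10 with R1881 (3 closest to their own number). It was over 0.1 in 2 of 5 and 3 of 5 with the lower and higher dose of darolutamide (2 closest in each) and 2 of 8 in VCaP. The range was 0.00853 to 0.379 with R1881, -0.0774 to 0.580 and -0.140 to 0.422 with the lower and higher dose, and -0.0818 to 0.455 in VCaP. Whether the numbers pair the samples in these arms was not settled, and the main fits did not use them as pairs. Counting error limits genes of few reads such as CYP1A2 and DBP.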

Other observations

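Gene families were looked at after the values were seen and are described without a test, beside 10.7% of all genes higher and 11.4% lower. They share members with the lists, such as UGT2B15 and UGT2B17 of the androgen-repressed list and the kinesins KIF2C and KIF11 of the mitotic list. Their counts are therefore not independent of those above. Of 6 UGT2B genes, which conjugate steroids and other lipids to glucuronic acid, 5 rose, with UGT2B10 at 0.66 and UGT2B28 at 0.53, and their sequences are close enough to make the split of reads uncertain. All 3 tested contactins rose, with CNTN5 at 0.65 beside CNTN1. Of 12 cadherins 7 rose and 1 fell, with CDH10 at 0.91 and CDH6 at 0.80, and CDH1 (E-cadherin) at 0.09. Of 61 protocadherins 13 rose and 1 fell, and of 7 glutamate receptor genes 3 rose. Of 11 Eph receptors 4 rose and 1 fell, with EPHA5 at 0.86.

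Of 40 clustered histone genes 11 rose and none fell, with a median of 0.18, in libraries made from polyadenylated RNA. The 11 include the copies HIST2H4A and HIST2H4B, at 52.4 to 67.3 and 52.2 to 67.0 CPM at 8 h. Among the 40, HIST2H3A and HIST2H3C had equal values, so such members may hold the same reads. Of 34 kinesins 15 fell and 3 rose, and of 31 tubulins 7 fell and 1 rose. Of 73 mitochondrial ribosomal proteins 13 fell and 3 rose, while 1 of 82 cytosolic ribosomal proteins rose and none fell.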
